A study of Homo sapiens with 6 samples.

Results

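A set of 40 interferon-stimulated and RNA sensor genes was followed after knockdown of BAP18, a chromatin-associated protein, in A549 cells. The 40 genes were the rows carrying these symbols among the 35474 genes of the deposited count table, and all 40 were present. A549 cells are an established line from a human lung adenocarcinoma and are epithelial. The experimental cultures received an siRNA against BAP18 (siBAP18) and the control cultures a non-specific siRNA (siCtrl), with 3 biological replicates per group, and RNA was taken 48 h after transfection. Both groups were therefore transfected with siRNA, neither was labelled as treated with interferon or virus, and an untransfected culture was not analysed here. Which BAP18 siRNA the sequenced cultures received is not given in the sources used here.

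Interferons are secreted proteins that a cell makes when it senses viral nucleic acid. Foreign RNA is recognised by the cytosolic helicases RIG-I (listed as DDX58) and MDA5 (IFIH1), by TLR3 in endosomes, by the kinase PKR (EIF2AK2) and by the OAS enzymes. Sensing activates IRF3 and IRF7, which switch on interferon genes. Secreted interferon then binds its receptor, and JAK kinases activate STAT factors. STAT2 and IRF9 act in the complex ISGF3, which binds interferon-stimulated response elements in the promoters of antiviral genes. Epithelial cells carry a low constitutive level of many of these genes.

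BAP18, listed as C17orf49, was counted 743, 751 and 705 times in siCtrl and 120, 137 and 108 times in siBAP18 (values are always in the order of replicates 1, 2 and 3). Its log2 fold change was −2.65 (SE 0.111, adjusted p = 7.31e-16, quasi-likelihood test of edgeR, Benjamini-Hochberg adjusted over 20776 genes). Library totals lay between 42094524 and 56548620 counts. The libraries carried the markers listed for epithelial cells and A549, namely KRT8, KRT18, KRT19, EPCAM, AKR1B10, AKR1C2 and ALDH1A1. Their summed RPKM was 9226.5 to 9445.5 in siCtrl and 6190.6 to 6408 in siBAP18. Mean RPKM went from 3251.4 in siCtrl to 1817.1 in siBAP18 for ALDH1A1, and from 1409.3 to 727.2 for AKR1B10. For KRT8 it went from 1948.2 to 1514.1. Of the listed markers only KRT19 had a higher mean in siBAP18, at 123.1 against 110.6. The summed RPKM of 3 leukocyte markers was 29.5 to 31.7 in siCtrl and 54.7 to 70.4 in siBAP18, which came almost wholly from CD68, a lysosomal protein, while CD14 had at most 60 counts and ITGAX at most 66. Endothelial markers summed to 0.13 to 0.158 RPKM and fibroblast markers to 0.893 to 1.35. The replicates of siBAP18 differed more from each other than those of siCtrl, and siBAP18 replicate 3 was the lowest of the 6 libraries in 24.5% of all tested genes and the highest in 23.6%. Mitochondrial genes took 6.86% to 7.43% of counts in siCtrl and 5.27% to 6.14% in siBAP18, without overlap. Of the 39 measured members, siBAP18 replicate 3 was the lowest library in 10 and the highest in 10. The part of these markers, of the mitochondrial share and of this library in the values below was not tested beyond leaving each library out.

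Of the 40 genes, 39 had at least 10 counts in some library and 35 passed edgeR's filter on low counts. XAF1, a pro-apoptotic interferon target, never exceeded 2 counts and was not measured. OAS2, MX2, RSAD2 and IFI44L were measured but too low to test, with at most 16 counts in any library. The median level of the 40 genes was 1.71 RPKM, and 22 of them had a mean over 1 RPKM. Among all 20776 tested genes the median was 2.09 RPKM. The summed RPKM of the 40 genes was 140.6 to 143.4 in siCtrl and 141.0 to 143.0 in siBAP18, so the groups overlapped in this total.

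The genes did not move together. At an adjusted p under 0.05, 11 of the 35 tested genes fell, 7 rose and 17 did neither. The fallen genes were EIF2AK2, TLR3, DDX58, OAS1, OAS3, IFI35, PARP9, DTX3L, IFIT2, IFIT3 and IRF3. The risen genes were MX1, ISG15, TRIM21, HERC5, IFI6, IRF1 and USP18. Among all tested genes, 25.1% fell and 24.5% rose at the same threshold, so 31.4% and 20% of the members lie near the background. With a log2 fold change beyond 1 as well, EIF2AK2 and TLR3 fell and MX1 rose, against 3.74% and 4.72% of all tested genes. The values of the groups did not overlap in 13 members that were lower in siBAP18 and in 8 that were higher, against 29% and 27.6% of all tested genes. The median log2 fold change was −0.04 over the 35 members and 0.0010 over all tested genes. An absolute log2 fold change over 0.5 was found in 15 members (42.9%) and in 32.5% of all tested genes.

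**Figure D1:**
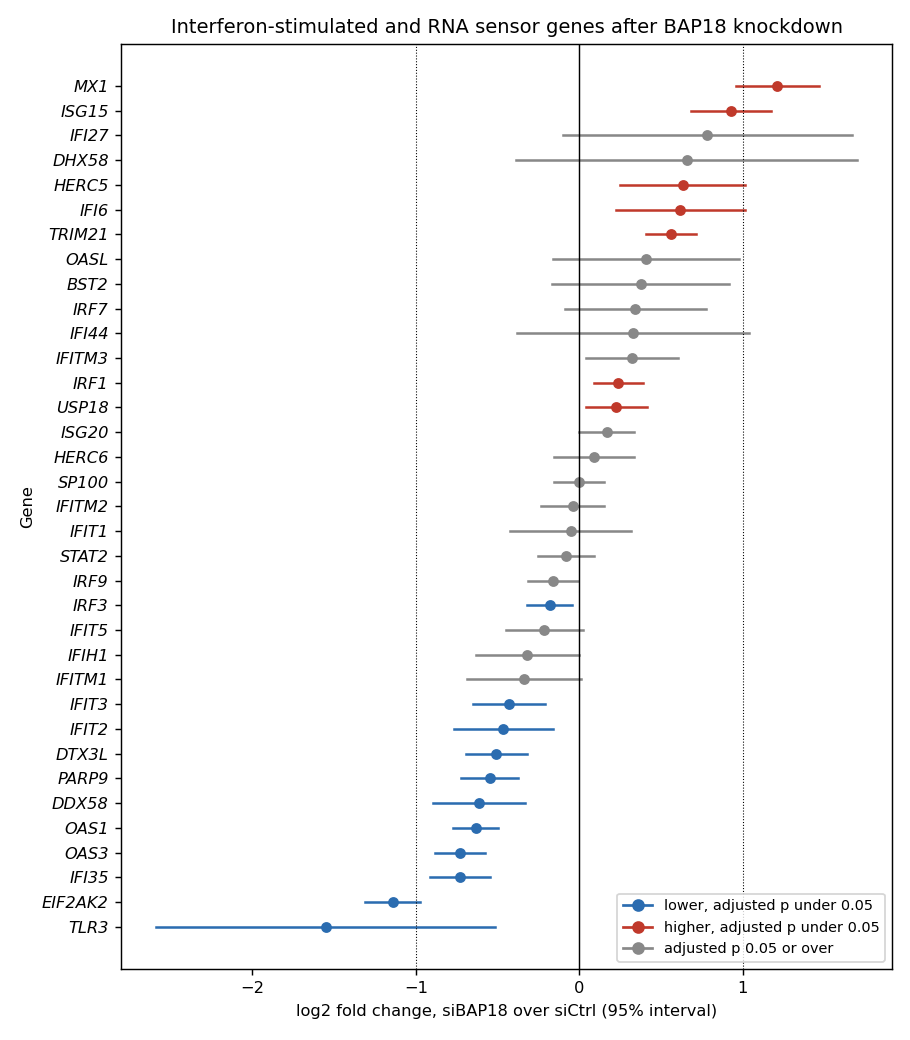
Log2 fold change of each of the 35 tested genes (x axis, siBAP18 over siCtrl), with bars for its 95% interval from edgeR, dotted lines at −1 and 1, and colours for the adjusted p. The genes spread to both sides of 0, from −1.55 for TLR3 to 1.21 for MX1.

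Among the sensors, the clearest change was in EIF2AK2, which encodes PKR, the kinase that binds double-stranded RNA and shuts down translation through eIF2α. Its counts were 2937, 2737 and 2626 in siCtrl and 1387, 1708 and 900 in siBAP18. Every siBAP18 library lay below every siCtrl library, and siBAP18 replicate 3 was the lowest. In bulk RNA, fewer cells expressing a gene and less RNA per cell cannot be told apart. Expression fell from 56.7 ± 1.88 CPM (SD, n = 3; CPM are counts relative to the scaled library total) to 25.6 ± 3.52 (SD, n = 3). The log2 fold change was −1.14 (SE 0.0820, adjusted p = 1.99e-11, edgeR with Benjamini-Hochberg adjustment), and it lay between −1.25 and −1.05 with each library left out in turn. With offsets for gene length and GC content, it was −0.72 and thus not past −1 (adjusted p = 3.02e-10 by edgeR, within a range of 4.60e-48 to 0.00157 over the alternatives).

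TLR3, the endosomal receptor for double-stranded RNA, was near the detection limit. Its counts were 20, 10 and 16 in siCtrl and 4, 6 and 6 in siBAP18. The groups did not overlap, but siCtrl replicate 2 stood only 4 counts above the highest siBAP18 library. The log2 fold change was −1.55 (SE 0.503, adjusted p = 0.0123 by edgeR). Without siCtrl replicate 1 it was −1.39 (adjusted p = 0.0690 by edgeR). Without siBAP18 replicate 1 it was −1.33 (adjusted p = 0.0677 by edgeR), within a range of 0.0128 to 0.119 over the alternatives. That range covers the 14 of 18 alternatives in which TLR3 was tested, and halved counts were not among them.

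DDX58, which encodes the 5′-triphosphate RNA sensor RIG-I, had 341, 278 and 265 counts in siCtrl and 224, 270 and 119 in siBAP18. After scaling, all siBAP18 libraries were below all siCtrl libraries, at 3.89 ± 0.866 CPM against 6.02 ± 0.373 (SD over n = 3 libraries each). The log2 fold change was −0.61 (SE 0.137, adjusted p = 5.51e-04 by edgeR), and −0.35 with offsets for length and GC content. IFIH1, the MDA5 sensor of long double-stranded RNA, showed a log2 fold change of −0.32 (adjusted p = 0.0879 by edgeR) and overlapping groups. It passed the threshold without siCtrl replicate 2, at −0.44 (adjusted p = 0.0332 by edgeR), and without siBAP18 replicate 1, at −0.43 (adjusted p = 0.0458 by edgeR), within a range of 0.0332 to 0.557 over the alternatives. DHX58 encodes LGP2, which lacks the signalling domains of RIG-I and MDA5 and modulates both. Its counts were 12, 6 and 16 in siCtrl and 38, 11 and 8 in siBAP18, so a single library carried its log2 fold change of 0.66 (adjusted p = 0.299 by edgeR). Without siBAP18 replicate 1 the value was −0.27 (adjusted p = 0.741 by edgeR), within a range of 0.108 to 0.741 over the alternatives.

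The OAS enzymes make 2′-5′ oligoadenylates, a signal for RNA decay, when they bind double-stranded RNA. OAS1 and OAS3 both fell, and OAS1 was among the most abundant members, at a mean of 13.4 RPKM. OAS1 had 4298, 3728 and 3799 counts in siCtrl and 2720, 2988 and 2234 in siBAP18. OAS3 had 2367, 2178 and 1866 counts in siCtrl and 1419, 1509 and 1109 in siBAP18. Neither gene overlapped between the groups. OAS1 fell from 80.7 ± 0.560 to 52.1 ± 2.68 CPM (SD over n = 3 libraries each), or −0.63 as a log2 fold change (SE 0.0669, adjusted p = 1.79e-08 by edgeR). OAS3 fell from 43.8 ± 3.52 to 26.4 ± 0.817 CPM (SD over n = 3 libraries each), or −0.73 as a log2 fold change (SE 0.0739, adjusted p = 9.27e-09 by edgeR). OAS2, their neighbour on chromosome 12, had 10, 12 and 11 counts in siCtrl and 10, 8 and 4 in siBAP18 and was not tested. OASL, which lacks synthetase activity, showed a log2 fold change of 0.41 with an adjusted p of 0.230 by edgeR. Its scaled values were nevertheless higher in all 3 siBAP18 libraries, on 28 to 34 counts in siCtrl and 32 to 54 in siBAP18.

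**Figure D2:**
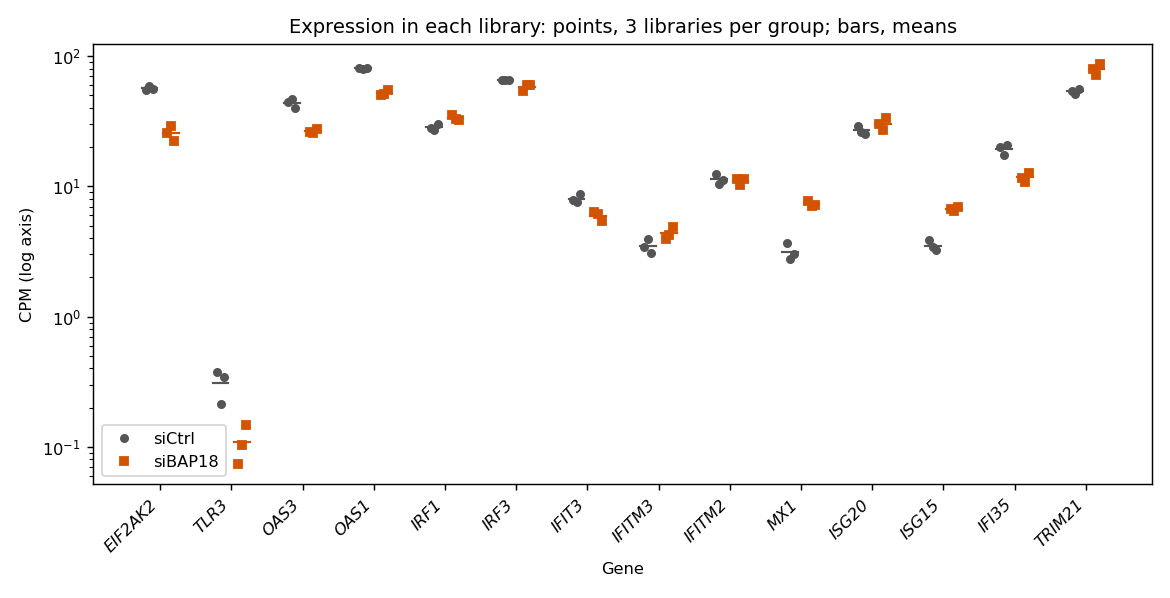
Expression in CPM (log axis) of 14 genes in each library, with circles for siCtrl, squares for siBAP18, 3 points per group and short bars for the group means. EIF2AK2, TLR3, OAS1, OAS3, IRF3, IFIT3 and IFI35 are lower in every siBAP18 library than in any siCtrl library. MX1, ISG15, TRIM21, IRF1 and IFITM3 are higher in every siBAP18 library, and the groups overlap in IFITM2 and ISG20.

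The transcription factors of the pathway changed little, with log2 fold changes from −0.18 to 0.34. IRF3, the constitutive factor activated by the sensors, had the highest RPKM of the group. Its counts were 3510, 3034 and 3077 in siCtrl and 2943, 3484 and 2435 in siBAP18, and the scaled groups did not overlap. The log2 fold change was −0.18 (SE 0.0675, adjusted p = 0.0280 by edgeR), a small fall. It lost the threshold without any 1 siCtrl library, with adjusted p from 0.0714 to 0.0904 by edgeR, and without siBAP18 replicate 1, at −0.13 (adjusted p = 0.188 by edgeR), within a range of 7.93e-05 to 0.188 over the alternatives. IRF3 shares 19.3% of its exon length with BCL2L12 on the opposite strand, and use of strand in counting is not given in the sources used here.

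IRF1, an activator induced by interferon gamma, had 1502, 1251 and 1412 counts in siCtrl and 1925, 1913 and 1319 in siBAP18. It rose slightly, with a log2 fold change of 0.24 (SE 0.0727, adjusted p = 0.00806 by edgeR) and no overlap between the groups. The change was 0.20 without siCtrl replicate 2 (adjusted p = 0.0749 by edgeR) and 0.20 without siBAP18 replicate 1 (adjusted p = 0.0659 by edgeR), within a range of 0.00144 to 0.0749 over the alternatives. STAT2 showed a log2 fold change of −0.08 (95% interval −0.25 to 0.087). IRF7, the factor that amplifies interferon production, had 0.34 (adjusted p = 0.186 by edgeR). IRF9, the DNA-binding partner in ISGF3, had −0.16 (adjusted p = 0.0728 by edgeR), and it passed without siBAP18 replicate 3, at −0.21 (adjusted p = 0.00897 by edgeR), within a range of 3.49e-04 to 0.327 over the alternatives. A gene on the same strand covers 48.4% of the exon length of IRF9, so the division of reads between them is uncertain.

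The IFIT family includes proteins that bind foreign RNA at its 5′ end and block its translation. All 4 genes lie in 1 cluster, chr10:89283694-89421001 on GRCh38, and all 4 had negative log2 fold changes, although IFIT1 turned positive without siBAP18 replicate 1 (0.098), and IFIT1 and IFIT5 both turned positive (0.15 each) with offsets for length and GC content. IFIT3 had 418, 351 and 412 counts in siCtrl and 346, 359 and 220 in siBAP18, without overlap after scaling. It fell from 8.07 ± 0.660 to 5.98 ± 0.488 CPM (SD over n = 3 libraries each), or −0.43 as a log2 fold change (SE 0.107, adjusted p = 0.00167 by edgeR). IFIT2 fell by a similar amount, with a log2 fold change of −0.46 (SE 0.147, adjusted p = 0.0105 by edgeR), but it lost the threshold without siCtrl replicate 1, at −0.41 (adjusted p = 0.0580 by edgeR), and without siCtrl replicate 3, at −0.38 (adjusted p = 0.0666 by edgeR), within a range of 0.00216 to 0.135 over the alternatives. IFIT5 had −0.21 (adjusted p = 0.127 by edgeR) and IFIT1 had −0.05 (95% interval −0.42 to 0.32). The groups overlapped in IFIT5 and IFIT1.

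In the membrane group, 0 of 4 genes passed the adjusted threshold by edgeR or by the Wald test of DESeq2, and 1, IFITM3, had an unadjusted p under 0.05 by edgeR. The IFITM proteins restrict virus entry, and BST2 tethers budding virus to the cell surface. IFITM2, with the highest RPKM of the group, had 666, 483 and 526 counts in siCtrl and 625, 602 and 465 in siBAP18. Its log2 fold change was −0.04 (95% interval −0.23 to 0.15) and the groups overlapped. IFITM3 had 182, 183 and 143 counts in siCtrl and 215, 246 and 199 in siBAP18, without overlap. Its log2 fold change was 0.32 (adjusted p = 0.0555 by edgeR), which passed without siCtrl replicate 2, at 0.41 (adjusted p = 0.0339 by edgeR), and without siBAP18 replicate 1, at 0.39 (adjusted p = 0.0453 by edgeR), within a range of 0.0339 to 0.469 over the alternatives. IFITM1 had −0.34 (adjusted p = 0.101 by edgeR) and BST2 had 0.37 (adjusted p = 0.251 by edgeR). As listed, IFITM1 and IFITM2 share 351 exonic bases on the same strand, which is 32.5% of IFITM1 and 22.7% of IFITM2. The IFITM genes, IFITM3 included, also share sequence over part of their length. Of the 50-base words in their GENCODE 29 transcripts, 32% in IFITM1, 34.1% in IFITM2 and 17.4% in IFITM3 also occur in another gene, so their separate values are uncertain.

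The largest rise was in MX1, which encodes a dynamin-like GTPase that traps viral nucleocapsids. Its counts were 194, 129 and 142 in siCtrl and 422, 410 and 292 in siBAP18. Every siBAP18 library was above every siCtrl library by count and after scaling. Expression rose from 3.15 ± 0.448 to 7.33 ± 0.382 CPM (SD over n = 3 libraries each). The log2 fold change was 1.21 (SE 0.124, adjusted p = 1.07e-08 by edgeR) and lay between 1.12 and 1.33 with each library left out. MX2, its neighbour on chromosome 21, had 4, 4 and 2 counts in siCtrl and 14, 4 and 4 in siBAP18 and was not tested. RSAD2, the radical enzyme viperin, had 8, 10 and 2 counts in siCtrl and 8, 12 and 8 in siBAP18. ISG20, an exonuclease that degrades viral RNA, had 1542, 1225 and 1191 counts in siCtrl and 1654, 1574 and 1363 in siBAP18. The ISG20 groups overlapped, and its change on the log2 scale was 0.17 (adjusted p = 0.0926 by edgeR). Without siBAP18 replicate 2 it was 0.25 (adjusted p = 0.00677 by edgeR), within a range of 0.00677 to 0.314 over the alternatives.

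ISG15, a ubiquitin-like protein that is joined to other proteins after interferon, rose clearly. It had 205, 160 and 152 counts in siCtrl and 362, 380 and 282 in siBAP18, without overlap. Expression rose from 3.52 ± 0.308 to 6.71 ± 0.230 CPM (SD over n = 3 libraries each), or 0.93 as a log2 fold change (SE 0.118, adjusted p = 3.89e-07 by edgeR). HERC5, the ligase that attaches ISG15, had 109, 76 and 130 counts in siCtrl and 220, 194 and 104 in siBAP18. Its groups overlapped, since siBAP18 replicate 3 lay below siCtrl replicate 3. The log2 fold change was 0.63 (SE 0.187, adjusted p = 0.00653 by edgeR), but 0.47 without siCtrl replicate 2 (adjusted p = 0.0596 by edgeR) and 0.46 without siBAP18 replicate 1 (adjusted p = 0.0750 by edgeR), within a range of 2.60e-04 to 0.182 over the alternatives. USP18, the protease that removes ISG15 and restrains the receptor, rose by a small amount, with a log2 fold change of 0.23 (SE 0.0906, adjusted p = 0.0411 by edgeR).

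The rise in USP18 missed the threshold without siCtrl replicate 2 or 3 and without siBAP18 replicate 1 or 3, with log2 fold changes from 0.17 to 0.22 and adjusted p from 0.0666 to 0.211 by edgeR, within a range of 0.0220 to 0.693 over the alternatives. In USP18, 23.4% of 50-base words also occur elsewhere, nearly all in USP41, which had at most 4 counts. HERC6, a relative of HERC5 and its neighbour on chromosome 4, showed a log2 fold change of 0.09 (95% interval −0.16 to 0.34). The enzymes that activate and carry ISG15 were not members. UBA7 showed a log2 fold change of 0.01 (adjusted p = 0.973 by edgeR) and UBE2L6 had 0.11 (adjusted p = 0.464 by edgeR).

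The IFI genes are named for their induction by interferon and are not a family, and they moved in both directions. IFI35, a cytosolic leucine zipper protein, had 1069, 806 and 971 counts in siCtrl and 636, 634 and 514 in siBAP18. It fell without overlap from 19.4 ± 1.82 to 11.7 ± 0.913 CPM (SD over n = 3 libraries each), or −0.73 as a log2 fold change (SE 0.0884, adjusted p = 1.75e-07 by edgeR). IFI6, a small membrane protein, had 86, 68 and 52 counts in siCtrl and 106, 124 and 98 in siBAP18. It rose by 0.62 on the log2 scale (SE 0.191, adjusted p = 0.00907 by edgeR), and by 0.48 without siCtrl replicate 3 (adjusted p = 0.0634 by edgeR), within a range of 0.00626 to 0.0634 over the alternatives. IFI27 had 0.78 (adjusted p = 0.136 by edgeR) on 11 to 39 counts, and 1.17 without siBAP18 replicate 1 (adjusted p = 0.0231 by edgeR), within a range of 0.0231 to 0.469 over the alternatives. IFI44 had 0.33 (adjusted p = 0.455 by edgeR). IFI44L had 10, 9 and 6 counts in siCtrl and 12, 16 and 2 in siBAP18 and was not tested.

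PARP9 and DTX3L encode an ADP-ribosyltransferase and a ubiquitin ligase that work as a pair, and the genes lie head to head on chromosome 3. Both fell. PARP9 had 1121, 1010 and 947 counts in siCtrl and 817, 901 and 507 in siBAP18, and its log2 fold change was −0.55 (SE 0.0845, adjusted p = 6.27e-06 by edgeR). DTX3L had 958, 866 and 883 counts in siCtrl and 730, 844 and 444 in siBAP18, and its log2 fold change was −0.51 (SE 0.0904, adjusted p = 4.15e-05 by edgeR). In both genes siBAP18 replicate 3 was the lowest library and the scaled groups did not overlap. They share 217 exonic bases on opposite strands, which is 2.4% of PARP9 and 3.7% of DTX3L.

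TRIM21, the cytosolic antibody receptor and ubiquitin ligase, was the member with the highest RPKM. It had 2868, 2385 and 2617 counts in siCtrl and 4342, 4160 and 3530 in siBAP18, and every siBAP18 library was above every siCtrl library. Expression rose from 53.7 ± 2.36 to 79.4 ± 7.93 CPM (SD over n = 3 libraries each), or 0.56 as a log2 fold change (SE 0.0745, adjusted p = 7.05e-07 by edgeR). SP100, a component of nuclear bodies, was at 33.4 ± 0.870 CPM in siCtrl and 33.4 ± 2.85 in siBAP18 (SD over n = 3 libraries each). Its 95% interval ran from −0.15 to 0.15 on the log2 scale.

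**Figure D3:**
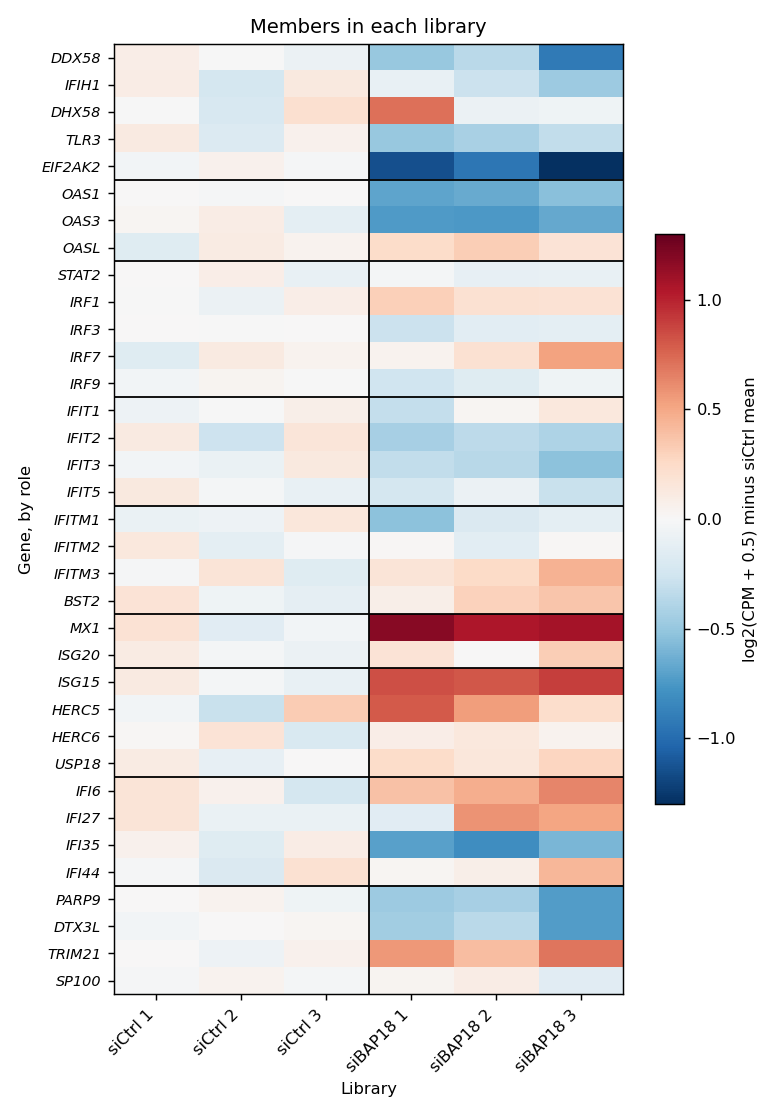
Log2(CPM + 0.5) of the 35 tested genes in each library minus the siCtrl mean, with rows grouped by role in the order of the text. Colours end at −1.3 and 1.3, and the added 0.5 shrinks the genes of lowest level, such as TLR3. Blue and red rows stand side by side within the siBAP18 columns, and DHX58 is red in 1 of them.

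Members that lay within 100 kb of each other on a chromosome formed 7 clusters. In the clusters of the IFIT genes, of OAS1 with OAS3 and of PARP9 with DTX3L, no tested member had a positive log2 fold change apart from IFIT1 and IFIT5 under the alternatives named above. In the IFITM cluster the log2 fold changes were −0.04 for IFITM2, −0.34 for IFITM1 and 0.32 for IFITM3. Of the neighbours MX1 and MX2, HERC5 and HERC6, and IFI44 and IFI44L, MX1 and HERC5 rose and HERC6 and IFI44 did neither. MX2 and IFI44L were too low to test, as was OAS2 beside OAS1 and OAS3. MX1 and IFI44 could therefore not be compared with their neighbours.

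Promoter sequences were read to see whether genes that fell and genes that rose held the same interferon-stimulated response element. The windows were 300 bases, from 250 before to 50 after each start, from RefSeq on GRCh38.p14, and 30 of the 40 members matched. DDX58, DHX58, OAS2, OASL, IRF3, IRF7, IFIT2, IFITM2, MX2 and USP18 were not matched. The core GAAANNGAAA was searched on both strands. It was found in 20 of 30 members (66.67%), in 21 of 57 other interferon pathway genes (36.84%) and in 996 of 27305 promoters in all (3.65%). A match describes the letters only. The 30-base windows shown here run 5′ to 3′ along the gene's own strand and show, for each fallen or risen member with a match, the match nearest the start. Capitals mark the core, which reads TTTCNNTTTC where it lies on the other strand.
EIF2AK2, fell, chr2:37156967-37156996, gene on the − strand: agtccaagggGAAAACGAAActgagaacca
TLR3, fell, chr4:186069142-186069171, + strand: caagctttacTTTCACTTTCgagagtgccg
OAS3, fell, chr12:112938452-112938481, + strand: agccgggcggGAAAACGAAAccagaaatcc
IFIT3, fell, chr10:89327865-89327894, + strand: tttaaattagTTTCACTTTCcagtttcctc
DTX3L, fell, chr3:122564322-122564351, + strand: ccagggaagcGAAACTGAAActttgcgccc
MX1, rose, chr21:41420559-41420588, + strand: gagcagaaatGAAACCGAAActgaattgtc
ISG15, rose, chr1:1013380-1013409, + strand: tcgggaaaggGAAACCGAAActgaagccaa
TRIM21, rose, chr11:4393666-4393695, − strand: cttctgagcgGAAACTGAAAgtgaaatagg
HERC5, rose, chr4:88457035-88457064, + strand: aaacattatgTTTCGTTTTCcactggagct
IFI6, rose, chr1:27672266-27672295, − strand: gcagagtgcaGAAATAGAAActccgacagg

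The same core stood in genes that moved in opposite directions. DTX3L, which fell, and TRIM21, which rose, shared the 10 letters GAAACTGAAA. EIF2AK2 and OAS3, which fell, shared GAAAACGAAA, and HERC5, which rose, held it on the other strand. MX1 and ISG15, which rose, shared GAAACCGAAA, and IFITM3, which did neither, held it too. IFIT1, IFIT5 and IFI27, which also did neither, held GAAACCGAAA on the other strand. The match began 6 bases before the start in EIF2AK2, 12 before it in OAS3 and 107 before it in ISG15, and it lay after the start in MX1 and TRIM21. Of the 19 tested members with the core, 5 fell, 5 rose and 9 did neither, with a median log2 fold change of 0.17, against 25.1% lower and 24.5% higher among all tested genes. Of the 8 tested members whose window lacked it, 3 fell, 1 rose and 4 did neither, with a median of −0.12. These counts are given without a test and rest on the RefSeq starts used. The window of PARP9, chr3:122564735-122565034, lay wholly outside the span of PARP9 in the count table, which ended at 122564577.

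The rest of the pathway was read from lists of 84 further genes, 30 of them other interferon-stimulated genes. Of the 84, 73 were in the table and 66 were tested. Of these 66, 32 fell (48.5%) and 11 rose (16.7%) at an adjusted p under 0.05, against 25.1% and 24.5% of all tested genes, and their median log2 fold change was −0.22. With a log2 fold change beyond 1 as well, 2 of the 66 passed, and both were lower, as were 3.74% of all tested genes. Under offsets for length and GC content, 25 of these pathway genes were lower and 11 higher at the adjusted p alone. The share of all tested genes under these offsets is not reported here, and the part of length in the counts was otherwise not tested. TNFSF10, the death ligand TRAIL, had 136, 124 and 124 counts in siCtrl and 52, 64 and 43 in siBAP18, and its log2 fold change was −1.34 (SE 0.182, adjusted p = 1.03e-06 by edgeR). TMEM173, the DNA-sensing adaptor STING, had 25, 40 and 38 counts in siCtrl and 16, 18 and 8 in siBAP18, and its log2 fold change was −1.38 (SE 0.364, adjusted p = 0.00271 by edgeR).

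Few interferon genes were detected at more than a handful of counts. Of 11 interferon genes looked for, 5 were among the counted genes, and IFNA2, IFNA5, IFNB1, IFNK, IFNW1 and IFNG were not. The deposited counts held no gene with 0 counts in every library. IFNL1, IFNL2 and IFNL3 had at most 2 counts in any library. IFNA1, a member of a family of near-identical genes whose reads may be shared, had 2 to 14 counts in siCtrl and 2 to 20 in siBAP18, with a log2 fold change of 0.34 (adjusted p = 0.665 by edgeR). IFNE, the epithelial interferon epsilon, had 51, 52 and 64 counts in siCtrl and 42, 49 and 28 in siBAP18, with a log2 fold change of −0.57 (adjusted p = 0.0603 by edgeR). CXCL11, a chemokine induced by interferon, had 0 counts in every siCtrl library and 6, 4 and 4 in siBAP18 and was not tested. CXCL10, also looked for, was not among the counted genes.

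Of the 10 receptor chains and kinases, 6 fell and 1 rose, against 25.1% and 24.5% of all tested genes. The following genes, and those of the next paragraph, were chosen after their values were seen. IFNAR1 and IFNAR2, the chains of the type I interferon receptor, had log2 fold changes of −0.55 (adjusted p = 1.33e-06 by edgeR) and −0.35 (adjusted p = 3.29e-04 by edgeR). JAK2, a kinase of the gamma receptor, fell by 0.67 in log2 units (adjusted p = 3.31e-05 by edgeR). The gamma receptor chain IFNGR2 rose by 0.38 (adjusted p = 1.72e-04 by edgeR).

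Of 18 tested sensing adaptors and kinases, 9 fell and 7 rose. The shares over all tested genes, for this list and those below, were 25.1% lower and 24.5% higher. MAVS, the mitochondrial adaptor of RIG-I and MDA5, fell by 0.25 in log2 units (adjusted p = 0.00287 by edgeR). TICAM1, the adaptor of TLR3, rose by 0.84 (adjusted p = 3.99e-06 by edgeR), and RNF135, a ligase that activates RIG-I, rose by 0.60 (adjusted p = 1.26e-06 by edgeR). Among 9 tested negative regulators and ISG15 enzymes, 4 fell and 1 rose. Among 27 other interferon-stimulated genes, 13 fell, including PARP14, a relative of PARP9, at −0.88 (adjusted p = 5.75e-10 by edgeR), and 2 rose, including the GTPase gene GBP2 at 0.79 (adjusted p = 2.24e-09 by edgeR).

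Gene length moved with the comparison. Among genes at a log2 CPM of 0 or more, the median log2 fold change was 0.04 for exon lengths up to 1500 bases and 0.10 from 1500 to 3000 bases. It was 0.01 from 3000 to 5000 bases, −0.06 from 5000 to 8000 bases and −0.14 above 8000 bases. Within siBAP18, replicate 3 differed from the other replicates along the same axis, from 0.06 in the shortest class to −0.08 in the longest. Of all tested genes up to 1500 bases, 12.9% fell and 18.1% rose at an adjusted p under 0.05, and of those above 8000 bases, 40.6% fell and 21.9% rose. Of the 5 tested members up to 1500 bases, 2 rose, and of the 5 above 8000 bases, 3 fell and 1 rose, too few to set against these shares. With offsets fitted for length and GC content, 12 members fell and 6 rose, and the members' median log2 fold change was 0.12 rather than −0.04. TLR3, IFIT2, USP18 and IFI6 then missed the threshold, while IFITM1, IFITM2 and IRF9 fell and SP100 rose at it. PARP9 was −0.31 under the offsets rather than −0.55, DDX58 was −0.35 rather than −0.61, and IRF3 was −0.32 rather than −0.18, all past the adjusted threshold. MX1, with a listed exon length of 8616 bases, was 1.22 under them. The part of length in each member's change was otherwise not tested.

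**Figure D4:**
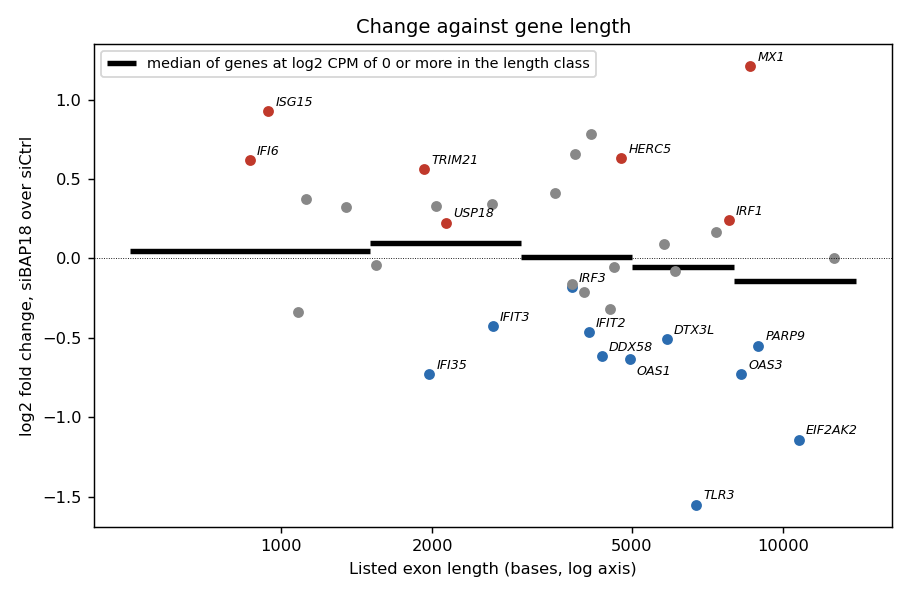
Log2 fold change (siBAP18 over siCtrl) of the 35 tested members against listed exon length in bases (log axis), coloured as in the plot of fold changes, with black lines for the median of genes at a log2 CPM of 0 or more in 5 length classes. The first line is drawn from 500 bases and the last to 14000 bases. The lines go from 0.04 in the shortest class to −0.14 above 8000 bases. Points are single genes and lines are medians of many genes, so their spreads cannot be compared.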

How the data were processed

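The transcriptomes of 3 siBAP18 and 3 siCtrl cultures of A549 cells were compared. Per the labels, poly(A) RNA went into strand-marked libraries read from both ends. The authors deposited whole-number counts per gene without normalization, and RPKM values, which equal the count per kilobase of listed length relative to the column total. The aligner, the counting program and its use of strand are not given in the sources used here. The submitters' processing notes name the builds GRCm38 and hg38. Of 24574 genes with a symbol in GENCODE 29, 24195 overlapped its span on GRCh38, the 40 members included. Even numbers made up 74.9% to 77.2% of the counts from 1 to 20, so the mates of a read pair appear to have been counted separately.

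Count analysis used edgeR 4.0.16 in R 4.3.3, with filterByExpr, TMM scaling and the quasi-likelihood test between groups, with Benjamini-Hochberg adjustment over 20776 genes and no adjustment over the members alone. Standard errors and 95% intervals come from the same test. Calls needed an adjusted p under 0.05, either alone or, as in the study, together with a log2 fold change beyond 1 in size. Genes under 10 counts in every library were taken as not measured. A count of 0 allows up to 3 counts of a library's total, for counting error only. The script was tested on simulated data.

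The members, their role groups and the other gene lists were chosen with earlier results of these data known. Counts per library were given for members past both thresholds and for those with the smallest adjusted p or highest mean RPKM in each role group, and further ones were chosen after their values were seen. Outside the members, up to 4 genes per list past both thresholds were named by rule. Some genes of these lists enter the counts but are not reported here.

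Alternatives were DESeq2 1.42.0 size factors and its Wald test, upper-quartile scaling, total counts, a replicate block, each library left out, a minimum of 10 counts in every library, and no filter. RPKM values were also tested with limma 3.58.1 after adding 1 or 0.1 and taking log2, for genes with a mean RPKM of 0.5 or more, and after adding 1 for all genes. Halved counts, and offsets for GC content and length, were chosen after seeing the data. The promoter search and the plots used pandas 2.3.3, matplotlib 3.10.9 and numpy 2.4.6 under Python 3.11.15.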

Additional observations from a re-analysis of the deposited data

How the results depend on the processing

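The calls of EIF2AK2, OAS1, OAS3, IFI35, PARP9, DTX3L, IFIT3, MX1, ISG15 and TRIM21 held their direction and threshold in all 18 alternatives, and that of DDX58 in 17. The counts that moved by over 1.5 times were few. Members past both thresholds and lower (2 by edgeR) were 1 with at least 10 counts in every library, 1 with limma on log2(RPKM + 0.1), 1 with halved counts, and 0 with limma on log2(RPKM + 1) with or without a filter and with GC and length offsets. With each library left out they ranged from 1 to 2, and were 1 without siCtrl replicate 1 or siBAP18 replicate 1. Members past both thresholds and higher (1 by edgeR) were 0 with limma on log2(RPKM + 1) with or without a filter, and ranged from 1 to 2 with each library left out, with 2 without siBAP18 replicate 1, where IFI27 also passed. With limma on log2(RPKM + 1) without a filter, 7 members and 19 other pathway genes were lower, against 11 and 32 by edgeR. A pseudocount shrinks the fold changes of low genes by construction. The cause of the other differences was not tested. With each library left out, members lower ranged from 8 to 12 and members higher from 5 to 8.

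The replicate numbers were not taken to pair the libraries, because the labels do not say that a number marks a shared day or batch. The correlation of deviations of same-numbered libraries was 0.0773, 0.239 and 0.116 over 14222 genes. Every library correlated best with its own number, so a block on the numbers was fitted as an alternative. With a replicate block, 12 members were lower and 8 higher, with IRF9 and IFITM3 added, and SP100 was −0.0035. IFITM3 also passed with DESeq2 size factors and upper-quartile scaling, where 8 members were higher.

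Reversed signs were seen only in members that had not passed the threshold by edgeR. With each library left out, DHX58 ranged from −0.27 (without siBAP18 replicate 1) to 1.02, IFIT1 from −0.16 to 0.098 (without siBAP18 replicate 1), IFITM2 from −0.11 to 0.028 (without siCtrl replicate 1, and 0.0100 without siBAP18 replicate 2), HERC6 from −0.011 (without siCtrl replicate 3) to 0.19, and SP100 from −0.051 (without siBAP18 replicate 2) to 0.067. With GC and length offsets, IFIT1 was 0.15 and IFIT5 0.15. SP100 was also −0.015 without a filter and −0.0011 with limma on log2(RPKM + 0.1). DHX58, TLR3, OASL, BST2, IFI27 and IFI44 rested on at most 60 counts per library, and OAS2, MX2, RSAD2, IFI44L and XAF1 were too low to test. Of the 18 alternatives, DHX58 and TLR3 were tested in 14, IFI27 in 15, and IFIT1, OASL and IFI44 in 16.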
